A study of Homo sapiens with 4 samples.

Results

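The metallothioneins are a family of small, cysteine-rich proteins that hold zinc and copper, and also cadmium, in clusters of metal bound to thiol groups. The 10 genes considered here are MT1A, MT1B, MT1E, MT1F, MT1G, MT1H, MT1M, MT1X, MT2A and MT3, and they were followed through every probe that the platform annotation assigns to one of these symbols. A probe was found for 8 of the 10, with 1 probe each, among 19090 genes with a symbol. MT1A and MT1H had no probe under their symbol or gene identifier and have no value. The 8 probes were PH_hs_0028852 (MT1B), PH_hs_0040048 (MT1E), PH_hs_0062772 (MT1F), PH_hs_0062793 (MT1G), PH_hs_0042917 (MT1M), PH_hs_0018184 (MT1X), PH_hs_0038876 (MT2A) and PH_hs_0042318 (MT3). Members of the MT1 group are close paralogs, so a probe can also read a relative of the gene it is named after.

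The RNA came from Huh7, an established line of human hepatocellular carcinoma cells, grown in DMEM with fetal bovine serum and hybridised to 4 arrays with 1 dye each. All cells carried a stably expressed short hairpin RNA (shRNA) after puromycin selection: 2 arrays held cells with a scramble shRNA and 2 held cells with an shRNA against ACOT12, a cytosolic thioesterase that hydrolyses acetyl-CoA. The study asked which genes lie downstream of ACOT12. Whether the cells were pools or single clones, and whether the arrays within a group represent separate cultures, is not given in the sources used here. The p-values therefore measure the spread between these arrays, which may be technical, and with 2 arrays against 2 an exact permutation test cannot give a two-sided p below 0.333.

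The median deposited intensity of an array lay between 327 and 451 and its 75th percentile between 2430 and 2657. A pair of values for a group gives replicate 1 and then replicate 2 throughout. The label was checked with lists of cell type markers. All 7 measured hepatic markers of 8 were at or above the median of all genes, with ALB between 17.19 and 17.74 and AFP between 17.03 and 17.93 on the log2 scale. Of 4 measured leukocyte markers of 5, PTPRC (5.39 to 6.09), CD3E and CSF1R were below the median, but CD14, a co-receptor for lipopolysaccharide that hepatocytes also make, was bright, at 13.87 and 14.15 in scramble and 13.61 and 13.87 in shACOT12 cells. All 5 endothelial markers were below the median, with a list mean of 7.93 to 8.53 over the arrays. Of 5 stellate and fibroblast markers, COL1A1, a collagen gene, was above it (9.67 to 10.75), and the list mean was 6.81 to 6.92. None of these markers passed the limma threshold between the groups. The targeted gene ACOT12 read 8.28 and 7.47 in scramble and 7.58 and 7.37 in shACOT12 cells. These values overlapped (log2 fold change -0.40, SE 0.35, limma adjusted p = 1), so lower ACOT12 mRNA was not detected on these arrays. The only ACOT12 probe was dim, with 35.4% to 46.6% of probes at or below it, so its values say little about the knockdown. Since the number of arrays is small, every value below has low precision.

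In liver and in many cell lines, zinc, cadmium and copper raise MT1 and MT2A transcription through MTF1, a zinc finger factor that binds short metal response elements in their promoters. Glucocorticoids also raise MT2A. MT3 is known mainly from brain, where it was found as a growth inhibitory factor. The 10 genes lie next to each other on chromosome 16. In the RefSeq gene order of GRCh38.p14 they run MT3, MT2A, MT1E, MT1M, MT1A, MT1B, MT1F, MT1G, MT1H and MT1X, with 7 other genes between them, most of them metallothionein pseudogenes.

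The measured members fell into 5 whose mean lay at or above the median of all genes, which was 9.14 on the log2 scale, and 3 below it. MT1M came into the 5 only through the arrays numbered 1, since it read 7.36 and 8.32 on those numbered 2. The brighter 5, MT1E, MT1F, MT1M, MT1X and MT2A, differed widely between the arrays, and they did so within each group more than between the groups. The dim 3, MT1B, MT1G and MT3, spanned at most 0.52 on the log2 scale over the 4 arrays. In the gene order the dim members are not side by side: MT3 stands at one end, MT1B between MT1A and MT1F, and MT1G between MT1F and MT1H. In RNA from whole cultures, fewer expressing cells and less RNA per cell cannot be told apart.

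MT2A encodes the metallothionein 2 protein. Its deposited intensity was 55796 and 9430 in scramble and 48553 and 24162 in shACOT12 cells. After normalization these were 15.76, 13.20, 15.55 and 14.55 on the log2 scale. The arrays numbered 1 were thus both high, scramble replicate 2 was the lowest, and the values of the groups overlapped. The probe was among the brighter ones on every array, with 87.7% to 97.3% of all probes at or below it.

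MT1E, a metal-binding MT1 isoform, showed the widest spread. Its deposited intensity was 8862 and 575.2 in scramble cells, a ratio of 15.4, and 7420 and 1985 in shACOT12 cells, a ratio of 3.74. On the log2 scale it read 13.12 and 9.11 in scramble and 12.86 and 10.89 in shACOT12 cells. Again both arrays numbered 1 were high and scramble replicate 2 was the lowest. MT1M, another MT1 isoform, read 10.56 and 7.36 in scramble and 10.44 and 8.32 in shACOT12 cells. Its deposited intensity on scramble replicate 2 was 166.7 against 1489 on scramble replicate 1, so the probe moved from above the median of all genes to below it.

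MT1F, an MT1 isoform, stood at 14.57 and 11.64 in scramble and at 14.02 and 12.65 in shACOT12 cells, from deposited intensities of 24236, 3277, 16778 and 6413. MT1X, an MT1 isoform at the far end of the cluster from MT3, stood at 12.79 and 9.99 in scramble and at 12.72 and 11.11 in shACOT12 cells, from 7029, 1052, 6696 and 2304. All 5 brighter members had the same order of arrays: scramble replicate 1 highest, then shACOT12 replicate 1, shACOT12 replicate 2 and scramble replicate 2. The step between the arrays numbered 1 was small, with shACOT12 lower by between 0.07 (MT1X) and 0.55 (MT1F). Between the arrays numbered 2, shACOT12 stood higher for each of the 5, at a difference of 0.95 (MT1M) to 1.78 (MT1E). The replicate numbers carry no stated meaning, such as a shared day or culture, in the sources used here.

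The dim members did not have this order. MT1B, another MT1 isoform of the cluster, read 6.90 and 6.77 in scramble and 7.23 and 7.08 in shACOT12 cells. MT1G, an MT1 isoform often studied in liver cancer, read 7.41 and 7.31 in scramble and 7.65 and 7.83 in shACOT12 cells. For both genes the groups did not overlap, with shACOT12 higher. MT3 read 6.63 and 7.10 in scramble and 7.11 and 6.67 in shACOT12 cells, and its groups overlapped. Between 25.6% and 41.1% of the probes of an array were at or below these 3, and no detection flags were used, so their values are close to the dim end of the scale.

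**Figure D1:**
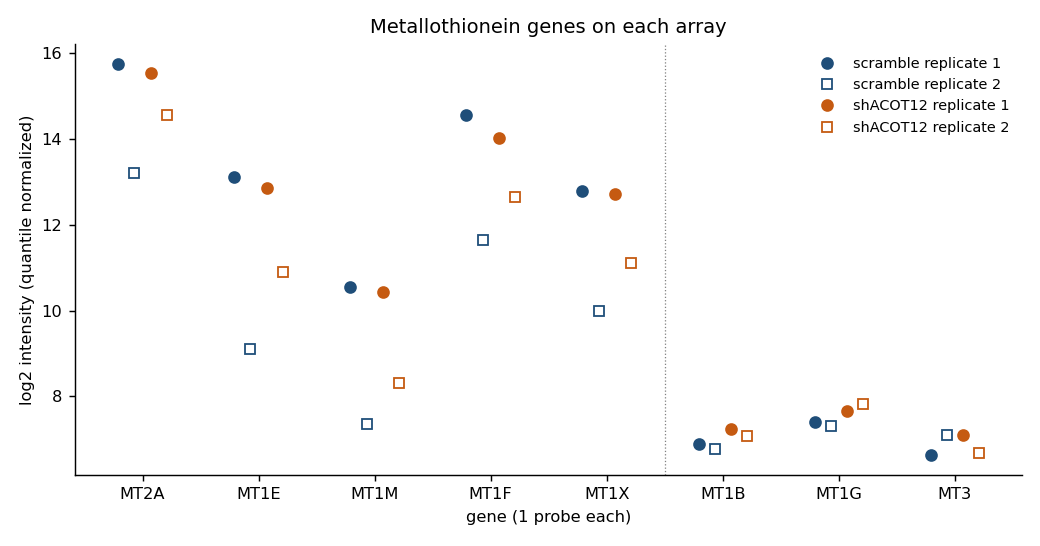
Log2 intensity after quantile normalization (vertical axis) of the 8 measured metallothionein genes on each of the 4 arrays, with scramble in blue, shACOT12 in orange, filled circles for replicate 1 and open squares for replicate 2. Left of the dotted line, the brighter 5 genes have both filled circles above both open squares, while right of it the dim 3 genes span at most 0.52; heights of different genes come from different probes and are not comparable.

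The comparison of shACOT12 with scramble cells gave no metallothionein gene past the threshold. With limma, 0 of the 8 measured members had an adjusted p under 0.05, as had 0.00524% of all genes, which is RASD1 alone. At an unadjusted p under 0.05 the count was also 0 of 8, beside 1.76% of all genes. All 8 log2 fold changes, shACOT12 minus scramble, were above 0, with a median of 0.40 beside 0.01 over all genes. When single arrays were left out, this direction held for MT1B and MT1G but not for the brighter 5 or MT3. The groups did not overlap for 2 of the 8, MT1B and MT1G, both higher in shACOT12 cells, beside 11.5% of all genes higher and 10.0% lower without overlap. With the values as deposited, MT1G overlapped and MT1B did not.

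For MT1E the mean was 11.11 ± 2.84 in scramble and 11.88 ± 1.40 in shACOT12 cells (SD, n = 2 each), which puts the log2 fold change at 0.76 (SE 1.25) with a 95% interval from -2.22 to 3.75 (adjusted p = 1 by limma). For MT2A it was 14.48 ± 1.81 and 15.05 ± 0.71, which differ by 0.57 (SE 0.80, interval -1.33 to 2.47). MT1X stood at 0.53 (SE 0.92), MT1M at 0.41 (SE 1.08) and MT1F at 0.23 (SE 0.92). In each of these 5 the difference between the groups was smaller than the SD within either group. The intervals are wide on both sides of 0, and with 2 arrays a group this fit detected no change of these genes in either direction.

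Among the dim members, MT1G averaged 7.36 ± 0.07 in scramble and 7.74 ± 0.12 in shACOT12 cells (SD, n = 2 each), and the groups differed by 0.38 (SE 0.27, interval -0.27 to 1.04). MT1B averaged 6.84 ± 0.09 and 7.16 ± 0.11, which differ by 0.32 (SE 0.27, interval -0.34 to 0.97), and MT3 stood at 0.02 (SE 0.32). The limma adjusted p was 1 for all 8 members. The differences of MT1G and MT1B exceeded the SD within each group, yet did not pass the test.

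Leaving out single arrays turned the direction of the brighter members. Without scramble replicate 2 their log2 fold changes lay between -1.24 (MT1E) and -0.71 (MT2A), and without scramble replicate 1 between 1.69 (MT1F) and 2.77 (MT1E). Without shACOT12 replicate 1 they lay between -0.65 (MT1M) and 0.07 (MT2A), and without shACOT12 replicate 2 between 0.92 (MT1F) and 1.75 (MT1E). The median over the 8 members ranged from -0.79 to 1.77 over these fits. MT1B stayed between 0.24 and 0.40 and MT1G between 0.30 and 0.47, while MT3 ranged from -0.21 to 0.26. None of the members passed the threshold in any of these fits.

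**Figure D2:**
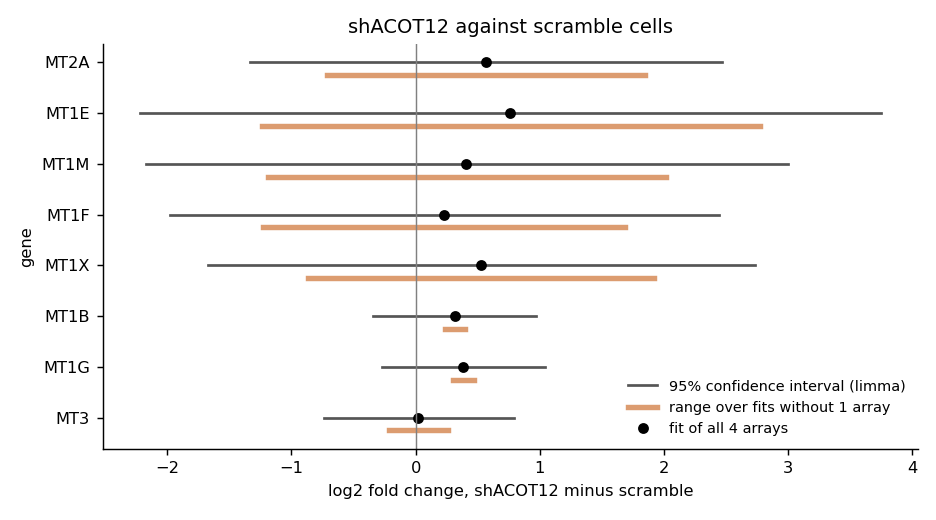
Log2 fold change of each measured metallothionein gene, shACOT12 minus scramble (horizontal axis), with black points for the fit of all 4 arrays, grey bars for the 95% confidence interval of limma and orange bars for the range of values over the 4 fits that each leave out 1 array. All grey bars include 0, and the orange bars of the brighter 5 genes reach from below to above 0.

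The spread between arrays of the same group was set against that of the 9545 genes whose mean was at or above the median of all genes. Over these genes the median absolute difference between the arrays of a group was 0.31 in scramble and 0.22 in shACOT12 cells. Ranked by the absolute difference between the scramble arrays, MT1E (4.01) was first, MT1M (3.20) the second, MT1F (2.93) the third, MT1X (2.80) the fourth and MT2A (2.56) number 6 of 9545. The only gene that came between them was TXNIP, which encodes the thioredoxin-interacting protein, with -2.78. Between the shACOT12 arrays the same genes differed by 1.98 (MT1E, rank 24), 2.12 (MT1M, rank 17), 1.37 (MT1F, rank 136), 1.60 (MT1X, rank 56) and 1.00 (MT2A, rank 418), with replicate 1 higher each time. MT1M was above the median of all genes, 9.14, only on the arrays numbered 1, and read 7.36 and 8.32 on those numbered 2. It entered the 9545 genes through the arrays on which it was high, so its ranks here and its count below are not independent of that entry. The same holds for its part in the means and the profile of the 5 brighter members below.

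A difference of at least 2 between the scramble arrays together with at least 1 between the shACOT12 arrays, both with replicate 1 higher, was found for 6 genes, or 0.0629% of the 9545. They were the 5 brighter metallothionein genes and MT1IP, a metallothionein pseudogene of the same cluster. These limits were set after the values had been seen, and the set is given as a description. With values as deposited and with 75th percentile scaling the same 6 genes were found, and with cyclic loess 5 of them, without MT2A. The mean difference of the 5 brighter members was 3.10 between the scramble arrays (3.06 to 3.12 under the other scalings) and 1.62 between the shACOT12 arrays (1.52 to 1.65). These means include MT1M, which entered the 5 through the arrays numbered 1. The opposite pattern, with replicate 2 higher by the same limits, was found for 5 genes, or 0.0524% (4 to 6 genes under the other scalings).

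Both arrays numbered 1 lay above both numbered 2 for 5 of the 8 members, beside 22.6% of all genes. Over all genes the direction alone was thus common. Over the 9545 genes the median difference between any pair of arrays was at most 0.017 after normalization. Quantile normalization holds that difference near 0, so it cannot show whether whole arrays shifted. Before normalization the median deposited intensity was 377 and 395 in scramble and 327 and 451 in shACOT12 cells, lower on replicate 1 in both groups. The SD of the difference over the 9545 genes was 0.508 between the scramble arrays and 0.471 between the shACOT12 arrays. What the differences between arrays of a group come from was not tested.

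**Figure D3:**
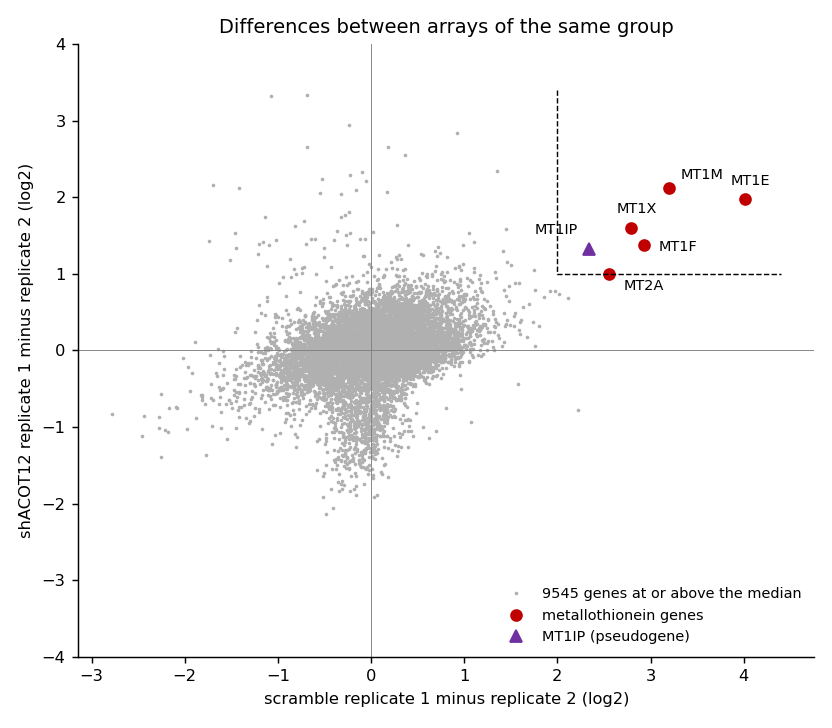
Difference on the log2 scale between replicates 1 and 2 of the scramble group (horizontal axis) and of the shACOT12 group (vertical axis) for 9545 genes at or above the median (grey), with the 5 brighter metallothionein genes in red and MT1IP as a purple triangle; 2 genes lie outside the vertical range of -4 to 4. The dashed lines mark 2 and 1, and the 6 genes past both are metallothionein genes or the pseudogene.

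The promoters of MT2A and MT1X, which varied between arrays, and of the dim MT1B are printed to show where metal response elements can be read. Each runs over 300 bases on the plus strand of GRCh38.p14, from 250 bases before the RefSeq start of the gene to 50 after it, 5′ to 3′ along the gene. Capitals mark every match to TGCACNC or TGCGCNC, the core of the metal response element, on either strand. The windows are chr16:56608334-56608633 for MT2A, chr16:56682220-56682519 for MT1X and chr16:56651636-56651935 for MT1B.
MT2A: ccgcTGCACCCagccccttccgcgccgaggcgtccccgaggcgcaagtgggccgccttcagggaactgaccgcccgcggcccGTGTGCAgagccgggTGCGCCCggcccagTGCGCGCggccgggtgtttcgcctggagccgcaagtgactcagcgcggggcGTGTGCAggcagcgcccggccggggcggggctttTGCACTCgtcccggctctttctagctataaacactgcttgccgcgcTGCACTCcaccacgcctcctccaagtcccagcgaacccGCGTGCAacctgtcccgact
MT1X: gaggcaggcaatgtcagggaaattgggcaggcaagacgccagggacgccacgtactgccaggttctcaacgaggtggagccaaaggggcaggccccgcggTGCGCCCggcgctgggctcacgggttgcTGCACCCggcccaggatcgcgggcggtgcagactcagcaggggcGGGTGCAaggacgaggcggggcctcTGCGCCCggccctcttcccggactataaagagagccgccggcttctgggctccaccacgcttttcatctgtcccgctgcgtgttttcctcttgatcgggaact
MT1B: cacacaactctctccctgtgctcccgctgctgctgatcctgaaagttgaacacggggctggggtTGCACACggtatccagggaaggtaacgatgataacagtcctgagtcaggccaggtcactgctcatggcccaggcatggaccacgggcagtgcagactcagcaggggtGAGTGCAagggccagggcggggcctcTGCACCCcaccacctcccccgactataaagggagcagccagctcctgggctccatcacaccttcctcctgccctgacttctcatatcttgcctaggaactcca

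The MT2A window held 8 matches, the MT1X window 4 and the MT1B window 3. Of 35116 promoters of the same length, 29.6% held at least 1 match, 2.30% at least 3, 0.601% at least 4 and 0.0199% at least 8. The window of MT1H, the unmeasured member next to MT1IP, also held 8. Promoters of 4 of the 10 members were in the RefSeq table used. Matches stood in the windows of both varying genes and of MT1B. The MT1B probe was dim, with deposited intensities of 106.2 to 170.9, so its narrow range does not show whether that gene varied. The number of matches also moves with base composition, since 72.0% of the bases of the MT2A window were G or C, 67.0% of those of MT1X and 60.3% of those of MT1B, beside a median of 58.7% over all promoters. A match is a run of letters and not a measured binding site.

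Other genes of the family were read for 4 of the 9 that had been listed. The pseudogene MT1IP also had both arrays numbered 1 high and scramble replicate 2 lowest, though shACOT12 replicate 1 was its highest, at 12.10 and 9.76 in scramble and 12.19 and 10.86 in shACOT12 cells (log2 fold change 0.59, SE 0.78, -0.58 to 1.76 without 1 array). As a near copy of the MT1 genes, it shares sequence with them, and its probe can read their RNA. MT1HL1, a relative of MT1H, stood at 9.34 and 8.90 in scramble and at 9.29 and 9.32 in shACOT12 cells, a range far below that of the brighter members. MT4, known from stratified epithelia, stood at 8.53, 8.12, 8.41 and 7.68 in the same order.

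MTF1, the factor that senses zinc and drives the family, was read by 2 probes that did not run alike. The brighter probe gave 8.95 and 9.22 in scramble and 9.09 and 9.34 in shACOT12 cells (log2 fold change 0.13, SE 0.29, -0.01 to 0.26 without 1 array). The other gave 8.81, 8.0, 8.61 and 8.08, so that both arrays numbered 1 were lower on the brighter probe and higher on this one. No direction for MTF1 between the arrays can be read from them.

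The zinc exporters of the SLC30 family had 6 of 10 members with higher and 4 with lower values in shACOT12 cells, a median of 0.10, and 0 past the limma threshold. SLC30A1, which exports zinc across the plasma membrane and is induced by zinc through MTF1 in mouse, read 11.77 and 10.51 in scramble and 11.72 and 11.32 in shACOT12 cells (log2 fold change 0.38, SE 0.45, -0.25 to 1.01 without 1 array). Its arrays stood in the order of the brighter metallothionein genes, with a difference of 1.26 between the scramble arrays and 0.40 between the shACOT12 arrays. SLC30A7, which loads zinc into the Golgi, stood at 14.78 and 14.39 in scramble and at 14.76 and 15.01 in shACOT12 cells.

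The zinc importers of the SLC39 family had 6 of 14 members higher and 8 lower, a median of -0.03, and 0 past the threshold. SLC39A10, an importer whose transcription MTF1 represses in mouse, read 10.77 and 11.97 in scramble and 10.50 and 10.93 in shACOT12 cells (log2 fold change -0.66, SE 0.44, -1.25 to -0.06 without 1 array). It was highest on scramble replicate 2, where the brighter metallothionein genes were lowest, with differences of -1.20 and -0.43 between the arrays of a group. Both arrays numbered 1 lay below both numbered 2 for 4 of the 14 importers, SLC39A10 among them. The share of all genes with that order was not counted, and a link to MTF1 was not tested. SLC39A14, an importer of zinc and iron that interleukin 6 induces in liver, stood at 12.53 and 12.22 in scramble and at 12.18 and 11.79 in shACOT12 cells (log2 fold change -0.40, SE 0.30, adjusted p = 1 by limma). Its second probe gave -0.63.

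Copper uptake, chaperone and export genes had 6 of 13 members higher and 7 lower, a median of -0.03, and 0 past the threshold. COX11, a chaperone that delivers copper to cytochrome c oxidase, stood at 0.43 (SE 0.31, 0.13 to 0.72 without 1 array), and COMMD1, which takes part in copper export from liver cells, at 0.30 (SE 0.27). Genes induced by metals and heat had 8 of 14 members higher and 6 lower, a median of 0.03, and 0 past the threshold. HSPA1A, an inducible Hsp70 gene whose probe may also read its near copy HSPA1B, read 12.86 and 11.63 in scramble and 12.83 and 12.50 in shACOT12 cells (log2 fold change 0.42, SE 0.44, -0.19 to 1.03 without 1 array), again lowest on scramble replicate 2. HSPA1B, with a probe of its own, read 11.43 and 11.14 in scramble and 11.32 and 10.83 in shACOT12 cells. Its lowest value was thus on shACOT12 replicate 2. GCLM, the modifier subunit of the enzyme that starts glutathione synthesis, stood at -0.36 (SE 0.29, -0.51 to -0.20 without 1 array). Both arrays numbered 1 lay above both numbered 2 for 7 of 14 genes of this list, 4 of 10 zinc exporters, 1 of 14 zinc importers and 3 of 13 copper genes, beside 22.6% of all genes.

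The glucocorticoid receptor and genes induced through it had 4 of 10 members higher and 6 lower, with 1 past the threshold. That gene, RASD1, fell from 11.62 and 11.75 in scramble to 2.43 and 1.64 in shACOT12 cells (limma adjusted p = 0.000691), values at the bottom of the scale. No gene, and so not RASD1 either, passed with the values as deposited, 75th percentile scaling, cyclic loess or the 20th percentile floor, nor without scramble replicate 1, scramble replicate 2 or shACOT12 replicate 1. The log2 fold change of RASD1 stayed between -10.05 and -9.26 in the fits without 1 array. With the dimmest 30% of genes left out, RASD1 had no value, because its mean over the arrays was too low. The 1 gene past the threshold in that fit was therefore another. TSC22D3, a leucine zipper protein induced by glucocorticoids, stood at 0.69 (SE 0.28) and SGK1, a kinase induced by them, at -0.54 (SE 0.29), both with an adjusted p of 1. TSC22D3 read 11.61 and 11.78 in scramble and 12.32 and 12.46 in shACOT12 cells, and SGK1 read 10.17 and 10.40 and then 9.57 and 9.92, so neither had the order of arrays of the brighter metallothionein genes. That order was found for NR3C1, the glucocorticoid receptor, at 11.89 and 11.08 in scramble and 11.82 and 11.73 in shACOT12 cells, and for FKBP5, a co-chaperone of the receptor, with replicate 1 higher by 0.68 in scramble and by 0.17 in shACOT12 cells. Both were chosen after their values were seen, and 1 of 2 further NR3C1 probes and the second FKBP5 probe did not have it. In this list 3 of 10 genes had both arrays numbered 1 above both numbered 2.

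**Figure D4:**
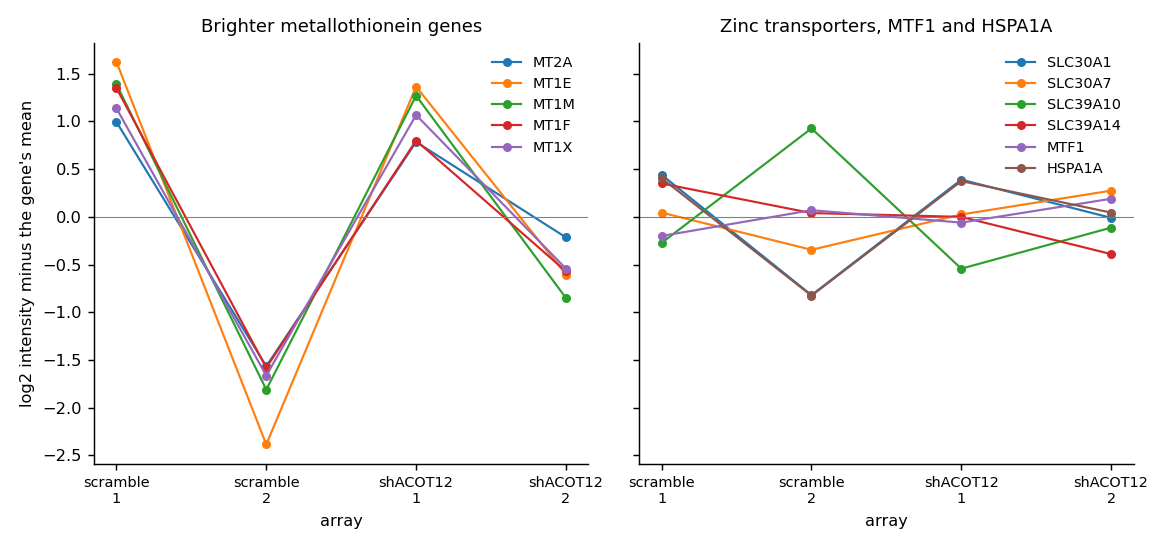
Log2 intensity of each gene minus its own mean over the 4 arrays (vertical axis, shared by both panels) for the 5 brighter metallothionein genes (left) and for 4 zinc transporters, MTF1 and HSPA1A (right); lines only join the values of a gene. SLC30A1 and HSPA1A are lowest on scramble replicate 2, as the metallothionein genes are, and SLC39A10 is highest there.

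The profile of the brighter members was also compared with every other gene at or above the median. Averaged over the 5 genes, each centred on its own mean, the profile was 1.30 and -1.80 in scramble and 1.06 and -0.56 in shACOT12 cells. Likeness was measured as the root mean square difference from it over the 4 arrays, for 9540 genes. A flat profile would be 1.26 away, and the 5 members themselves were 0.108 (MT1X) to 0.370 (MT1E) away. The closeness of the members is partly built in, since the profile is their own mean. MT1M, which entered the 5 through the arrays numbered 1, is part of that mean. The measure also counts size, so a gene with the same order of arrays but smaller differences lies further away.

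The closest gene was MT1IP (0.291), then ATF5 (0.481), a transcription factor of stress responses, RCBTB2 (0.499), FAM111B (0.513), a serine protease, and KBTBD8 (0.527), a substrate adaptor of a ubiquitin ligase. ATF5 read 10.54 and 8.43 in scramble and 10.30 and 9.62 in shACOT12 cells. Its difference between the scramble arrays was thus 2.11 and that between the shACOT12 arrays 0.68, the latter below that of each of the 5 brighter members. Among the genes of the lists above, SLC30A1 (0.781) came nearest after MT1IP, at rank 56 of 9540. From the genes induced by metals and heat, BAG3 (0.788, rank 63), HSPA1A (0.804, rank 80) and HSPH1 (0.805, rank 81) lay almost as near. The next of that list was NFE2L2, at rank 1440. With 4 arrays such a likeness describes these arrays only.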

How the data were processed

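Per the labels' protocols, Trizol extracts of total RNA were turned into aminoallyl RNA and labelled with Cy5 alone. The authors deposited 1 intensity per probe and array on a linear scale, with some values below 0 (lowest -24.8). Scanner, background correction and normalization are not given in the sources used here. Intensities under 1 were set to 1, taken to log2 and quantile normalized, because array medians spanned 0.462 on that scale. This forces 1 distribution on all arrays.

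Of 28264 probes, 25893 had 1 gene symbol in the platform annotation, all matched by gene identifier to RefSeq genes (GRCh38.p14, for names, order and promoters). Each gene was its probe with the highest mean, giving 19090 genes. limma 3.58.1 in R 4.3.3 (lmFit, eBayes, 2 residual and 4.69 prior degrees of freedom) compared the groups over all genes with Benjamini-Hochberg adjustment and a threshold of 0.05, without a block. The fit was also run on simulated data, with independent noise on each array and nothing shared by same-numbered arrays. That run cannot speak to differences that same-numbered arrays share, and no result here rests on it. Lists were described by counts and medians.

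The members and lists were chosen with earlier results of these data known. All members were named. From each other list the 2 genes with the largest absolute change at or above the median, where it had any, were named, beside MTF1, SLC30A1, ACOT12 and RASD1, and the 5 genes most like the brighter members. Genes outside this rule were named after their values were seen. Alternatives covered the floor, the scaling, the prior, the probes of a gene, dim genes, a replicate block and each array left out.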

Additional observations from a re-analysis of the deposited data

How the results depend on the processing

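The number of metallothionein genes past the limma threshold was 0 under all 13 alternatives, the lowest adjusted p of a member being 0.928 and the lowest unadjusted p 0.0332 (MT1G, values raised to the 20th percentile). Under the alternatives that kept all 4 arrays the members' log2 fold changes moved little, as for MT1E (0.76 to 0.80) and MT1M (0.41 to 0.52), and 1 changed sign, MT3 with cyclic loess (-0.0043). Dropping the dimmest 30% of genes left no value for MT1B and MT3, nor for RASD1. Fits without 1 array ranged from -0.79 to 1.77 for the median of the members, -1.24 to 2.77 for MT1E, -1.23 to 1.69 for MT1F, -1.19 to 2.02 for MT1M, -0.87 to 1.92 for MT1X, -0.71 to 1.85 for MT2A and -0.21 to 0.26 for MT3. With the replicate number as a block, 0 members passed and MT1E kept 0.76 with an unadjusted p of 0.0774 (limma). Over all genes the number past the threshold was 1, against 25 with that block, 3 with an intensity trend in the prior, 4 without shACOT12 replicate 2 and 0 with the values as deposited, 75th percentile scaling, cyclic loess, the 20th percentile floor or any other array left out. Deviations of same-numbered arrays from their group means correlated at 0.183 across genes, and 2 pairs do not settle whether the numbers pair the samples. The limits of 2 and 1 on the differences between arrays, and their scalings, were chosen after seeing the data.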

Other observations

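Several bright genes ran opposite to the metallothionein genes on all 4 arrays, being highest on scramble replicate 2 and low on both arrays numbered 1. They were ranked after the values had been seen, by the root mean square difference from the mirrored profile of the brighter members over 9540 genes, and no test was made. LINC00926, a long non-coding RNA, came first (0.310), from deposited intensities of 2315 and 12742 in scramble and 2115 and 4945 in shACOT12 cells. TXNIP, which encodes an inhibitor of thioredoxin and of glucose uptake, was next (0.317), with 2629 and 17961 in scramble and 4141 and 7677 in shACOT12 cells. PIGZ, a mannosyltransferase of glycosylphosphatidylinositol anchors (0.339), TSPO, a protein of the outer mitochondrial membrane (0.361), and HLA-E, a non-classical MHC class I gene (0.364), followed. NNMT, which methylates nicotinamide, also had this order, at 11.45 and 13.43 in scramble and 11.40 and 12.43 in shACOT12 cells on the log2 scale. CCL4L1, a chemokine gene with near-identical copies, had it on its brighter probe, with -2.18 between the scramble arrays, while its second probe gave 0.22. None of these 7 genes passed the limma threshold between shACOT12 and scramble cells (adjusted p = 1 for each).

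Among genes fixed in the lists but outside the rule for naming, BAG3, a co-chaperone of Hsp70, and HMOX1, which encodes heme oxygenase, also had both arrays numbered 1 above both numbered 2. BAG3 read 15.38 and 14.05 in scramble and 15.12 and 14.82 in shACOT12 cells, and HMOX1 read 9.41 and 8.34 and then 9.35 and 8.72. HSPH1, an Hsp110 chaperone, differed by 1.12 between the scramble arrays and by 0.77 between the shACOT12 arrays on its brighter probe, and by 1.33 and 0.31 on the other. All 3 were picked after their values were seen, from the list of 14 genes induced by metals and heat. Of these 14, 7 had both arrays numbered 1 above both numbered 2. In 2 others, HSPA6 and SLC7A11, both arrays numbered 1 lay below both numbered 2, and the rest had neither order. In BAG3, HMOX1 and HSPH1, as in HSPA1A, the difference between the scramble arrays was smaller than in any of the 5 brighter metallothionein genes, of which MT2A had the smallest at 2.56.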
